A study of Mus musculus with 4 samples.

Results

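The genes described here encode the alpha chains of collagens. They were chosen by name, as the protein-coding mouse genes whose symbol has the form Col, a type number, a and a chain number, and 44 of the 55573 genes in the deposited table met that rule. Of the 44 genes 11 encode fibrillar chains, 6 encode the type IV chains of basement membranes and 27 encode chains of other types. RNA was sequenced from SmoWT cells, a mouse model of SHH-subtype medulloblastoma, a tumour of the cerebellum. They derive from spontaneous tumours of Ptch1+/-, Trp53-/- mice of strain C57BL/6 and were grown as neurospheres. The control group of 2 libraries came from cells given DMSO, the solvent, and the treated group of 2 libraries from cells given 0.1 µM GDC0449, an inhibitor of Smoothened also known as vismodegib. Both treatments lasted 24 h, and both groups carry the same Ptch1 and Trp53 genotype. The labels do not say whether the replicates were separate cultures or how many tumours gave rise to the cells, so p-values measure only the spread between these libraries, which may be technical.

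A collagen molecule is a trimer of alpha chains that wind around each other along stretches of repeated glycine triplets. Fibrillar collagens assemble into banded fibrils, type IV collagens form the sheet-like network of basement membranes, and the remaining types bind to fibril surfaces, form beaded filaments or span the cell membrane. In the brain, fibrillar collagens belong mainly to the meninges, type IV collagens mainly to the basement membranes of vessels and meninges, and a few, such as the transmembrane type XXV, are made by neurons. The chains of one trimer can be encoded by separate genes.

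The libraries held 16329721 to 20790030 reads in genes. Gli1, the transcription factor gene that reports Hedgehog activity, was at 272 ± 12.9 CPM (read counts scaled to library size; SD, n = 2) in DMSO and at 35.7 ± 4.28 CPM in GDC0449. Of 11 markers of granule neuron progenitors, the cells that this tumour type resembles, 10 reached 1 CPM in at least 1 library, and their summed level was 2763 to 2845 CPM in DMSO and 2398 to 2498 CPM in GDC0449. Of the 10 tested, 4 rose (Meis1, Neurod1, Atoh1 and Zic4) and Gli1 fell. The gene with the highest level in the list was Mycn, a Hedgehog target picked after its values were seen, at a mean of 1307 CPM in DMSO and 898 CPM in GDC0449 (log2 fold change -0.54, under the fold threshold, and -0.71 on log2(FPKM + 1), past it). The Zic4 call was lost without DMSO replicate 2, where its log2 fold change was 0.58.

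Most collagen genes were scarce in these cells. At least 1 read was found for 43 of the 44 genes, but 31 genes had a read in all 4 libraries and 9 genes had between 1 and 3 reads over all libraries together. Only Col24a1, which encodes a fibrillar chain, had no read in any library; 3 reads, the most that a count of 0 allows, would be 0.0385 CPM over the 77944561 reads in genes. Such a limit covers counting error only. The default filter on low counts (about 0.49 CPM in at least 2 libraries) left 28 genes for testing. Of these 28 genes 19 passed it in all 4 libraries, 3 passed in no DMSO library and 2 in no GDC0449 library. The other 4 passed in both groups but not in all 4 libraries. Both GDC0449 but not both DMSO libraries passed for 6 genes, and the reverse held for 2. A gene that passed through 1 group alone was kept because it was high there, so counts over the 28 genes describe the genes and are not evidence that collagens as a whole moved.

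To compare levels between genes, CPM was divided by the exon length of each gene, which gives RPKM (CPM per kilobase of exon). In all 4 libraries 12 collagen genes reached 1 RPKM. Col9a3 (ENSMUSG00000027570, chromosome 2, 180597790 to 180622189), which encodes a chain of the fibril-associated type IX collagen, stood far above the rest. Its level was 50.7 and 50.3 RPKM in the DMSO libraries and 53.3 and 51.6 RPKM in the GDC0449 libraries. That was 51.1% and 50.3% of the summed collagen RPKM in DMSO and 47.1% and 47.2% in GDC0449. In DMSO the next genes by mean level were Col4a5 at 8.11 RPKM, Col27a1 at 7.28 RPKM, Col4a6 at 4.77 RPKM and Col2a1 at 4.60 RPKM. Col27a1 went from the third place in DMSO to place 11 in GDC0449, while Col4a5 kept place 2.

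**Figure D1:**
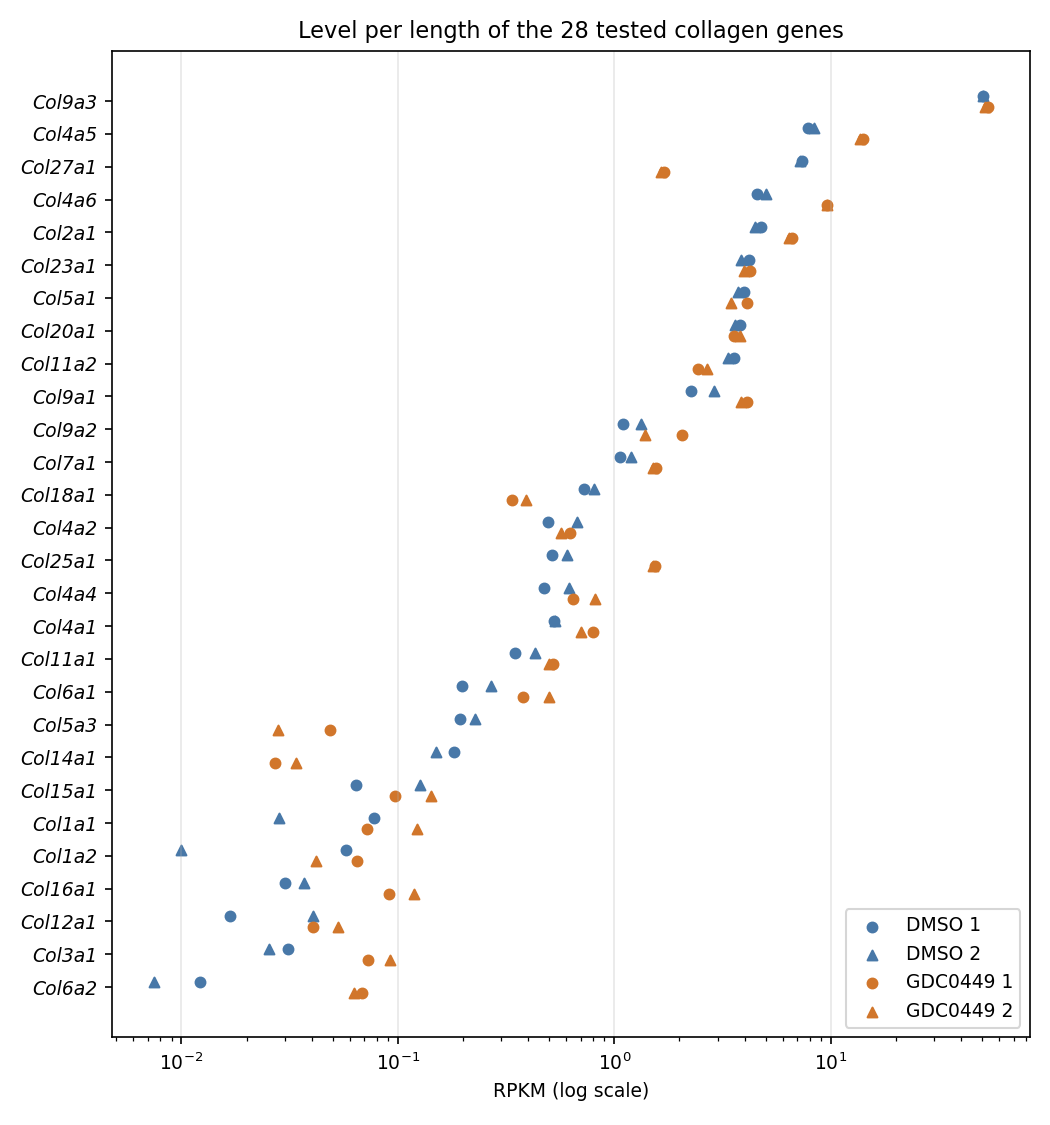
RPKM on a log axis for the 28 collagen genes that passed the filter on low counts, 1 point per library, with circles for replicate 1 and triangles for replicate 2. Genes are ordered by their mean in DMSO. Col9a3 lies above 50 RPKM in every library, and the Col27a1 points of the 2 groups lie far apart.

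The chains that define ordinary connective tissue were near the limit of detection. Col1a1 and Col1a2, the chains of type I collagen of bone, skin and tendon, had 3 to 17 and 2 to 17 reads per library, and Col5a2 had 2 reads, both in GDC0449 replicate 1. The short chain types, Col8a1, Col8a2 and Col10a1, had 3, 3 and 11 reads in all. The genes with 5 RPKM or more in any library were instead Col9a3, Col4a5, Col4a6, Col27a1 and Col2a1.

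By class, the summed level of type IV chains was 13.9 and 15.2 RPKM in DMSO and 25.8 and 25.4 RPKM in GDC0449. The summed level of fibrillar chains went the other way, from 20.4 and 19.5 RPKM to 15.7 and 14.96 RPKM. For both classes the groups did not overlap. The chains of other types summed to 65.0 and 65.3 RPKM in DMSO and to 71.7 and 69.1 RPKM in GDC0449, with Col9a3 making up most of that level. These sums are descriptions without a test, and each rests on few genes: Col4a5 and Col4a6 carry the type IV sum and Col27a1 the fall of the fibrillar sum.

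**Figure D2:**
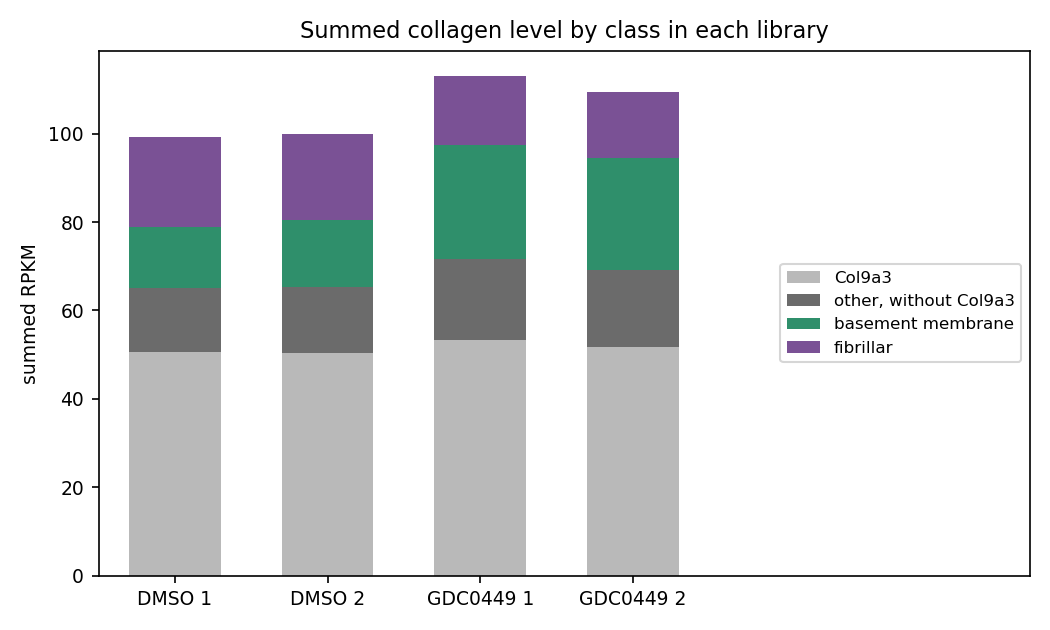
Summed RPKM of the 44 collagen genes in each library, stacked by class, with Col9a3 drawn apart from the other types. The type IV segment is taller in the 2 GDC0449 libraries, at 25.8 and 25.4 RPKM, than in the 2 DMSO libraries, and the fibrillar segment is shorter.

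A gene was called with edgeR at a Benjamini-Hochberg adjusted p below 0.05 over all 15472 tested genes together with a fold change over 1.5. Of the 28 tested collagen genes 8 rose and 4 fell, and 16 were not called. Over all tested genes 8.68% were called higher and 3.85% lower, together 12.5%. Among genes with all 4 libraries over the filter, 7 of 19 collagen genes were called (5 higher, 2 lower), beside 11.5% of all such genes (7.94% higher, 3.52% lower). Of the 14 tested collagen genes with a mean under 5 CPM 7 were called, beside 19.2% of all genes at that level. Of these 7, Col3a1, Col6a2 and Col16a1 passed the filter in no DMSO library, and Col5a3 and Col14a1 in no GDC0449 library. They were kept because they were high in the group that passed, so that share is not evidence that scarce collagens moved. Of the 14 at or above 5 CPM 5 were called, beside 9.66%. Among those with all 4 libraries over the filter, the median log2 fold change was 0.43 for the 19 collagen genes and -0.0031 for all 14163 genes. At adjusted p alone 13 were higher and 5 lower, beside 18.1% and 18.1% of all tested genes and 36.1% in either direction. The groups did not overlap for 15 collagen genes with GDC0449 above and 5 with GDC0449 below, beside 33.6% and 32.2% of all tested genes.

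The called genes were spread over the classes. Of 9 tested fibrillar genes 1 rose and 2 fell, of 5 tested type IV genes 2 rose and 3 were not called, and of 14 tested genes of other types 5 rose and 2 fell. Over the genes that passed the filter in all 4 libraries, 0 of 5 fibrillar genes rose and 1 fell. Of 5 such type IV genes 2 rose and 0 fell, and of 9 such genes of other types 3 rose and 1 fell. Their median log2 fold change was -0.03 for the fibrillar genes, 0.50 for the type IV genes and 0.45 for the other types. Whether the classes differ was not tested. The calls differed in firmness: Col4a5, Col4a6 and Col27a1 were called in all 12 alternative fits, Col25a1 in 11 of 12, and each of the other 8 called genes was lost without at least 1 of the DMSO libraries. With 8 collagen genes called higher on all libraries, 3 and 4 were called without DMSO replicates 1 and 2. Calls over all genes fell in the same fits, from 1343 higher genes to 624 and 500. Against 4 collagen genes called lower on all libraries, 1 was called lower without DMSO replicate 2, while calls over the whole table went from 596 lower genes to 351.

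**Figure D3:**
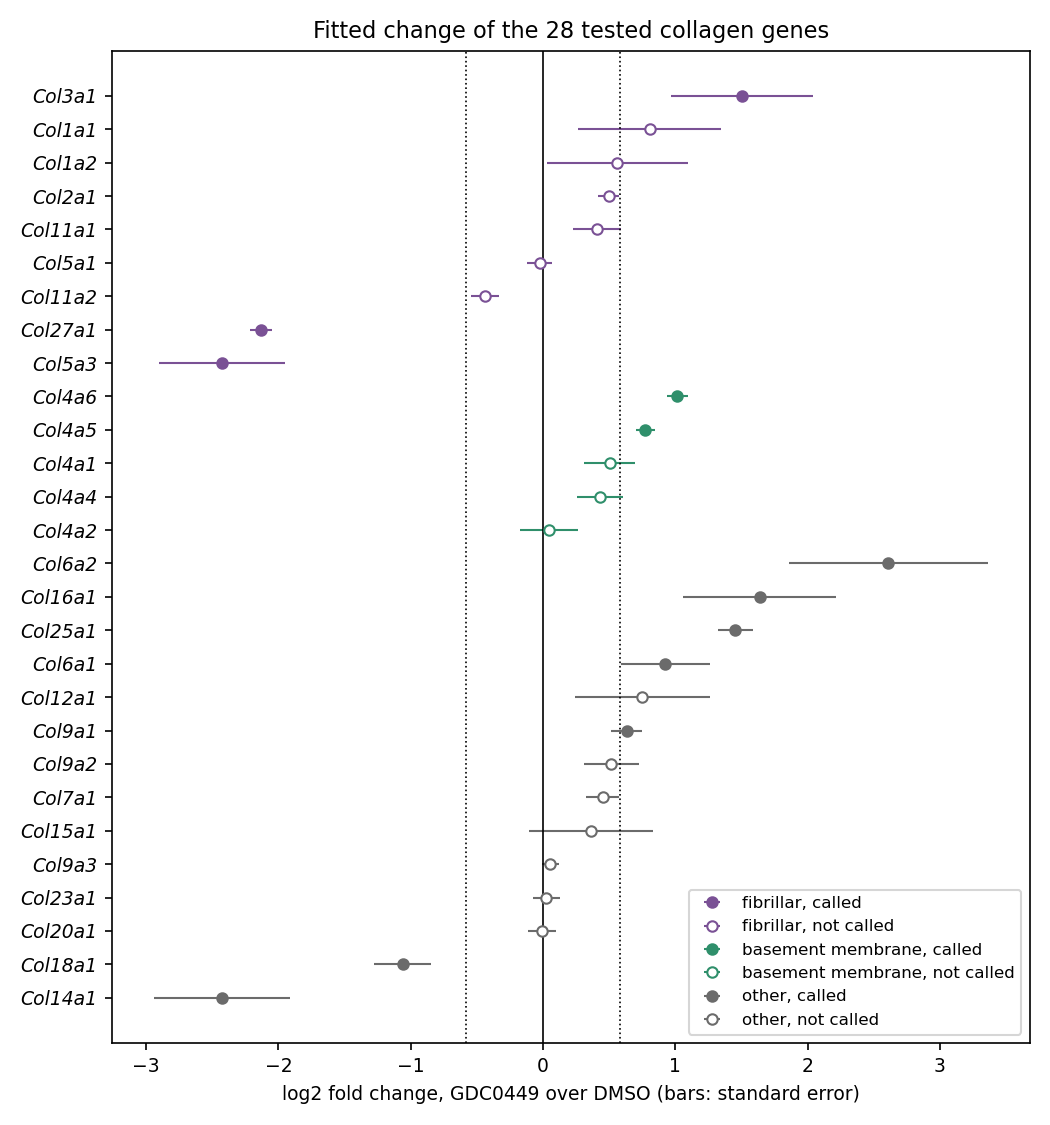
Fitted log2 fold change of GDC0449 over DMSO with its standard error for the 28 tested collagen genes, by class. Filled points were called, dotted lines mark the 1.5-fold threshold, and among called genes Col27a1 has the narrowest bar below 0 and Col4a5 the narrowest above 0.

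Among fibrillar chains, Col27a1 (ENSMUSG00000045672, chromosome 4, 63214004 to 63334991) changed most clearly. It encodes a fibrillar chain known from cartilage. Its level was 95.7 and 94.0 CPM in the DMSO libraries and 21.98 and 21.3 CPM in the GDC0449 libraries, so that the groups lay far outside their spread. The fall was 4.38-fold (log2 fold change -2.13, standard error 0.08, edgeR adjusted p = 1.30e-28). In the authors' deposited FPKM values, the ratio of GDC0449 to DMSO means was 0.244.

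Col2a1 (ENSMUSG00000022483, chromosome 15, 97975602 to 98004695), the main fibrillar chain of cartilage, lay on the other side of 0. It was at 43.9 and 41.2 CPM in DMSO and at 61.4 and 59.0 CPM in GDC0449. The groups did not overlap, and the log2 fold change of 0.50 (standard error 0.08; edgeR adjusted p = 8.59e-07) stayed under the fold threshold. On the authors' FPKM values the ratio was larger, 1.94, and with limma on log2(FPKM + 1) the gene was called, at 0.78. The cause of that difference between the counts and the FPKM values was not tested. Per length (RPKM), Col2a1 was at 0.647 and 0.617 of the level of Col27a1 in the DMSO libraries and at 3.94 and 3.90 times that level in the GDC0449 libraries.

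Type XI collagen nucleates the fibrils of type II collagen, and neither of its chains here was called. Col11a2 was at 24.7 and 22.9 CPM in DMSO and at 16.7 and 18.5 CPM in GDC0449, a log2 fold change of -0.44 (edgeR adjusted p = 0.000743) under the fold threshold. Col11a1 was at 4.42 and 5.46 CPM in DMSO and at 6.63 and 6.34 CPM in GDC0449. Its log2 fold change was 0.41 and missed the threshold with an edgeR adjusted p of 0.0757. The level per length of Col11a2 exceeded that of Col11a1 10.3- and 7.80-fold in the DMSO libraries and 4.67- and 5.41-fold in the GDC0449 libraries.

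Of the type V chains, which regulate fibril width, Col5a1 was at 33.8 and 31.7 CPM in DMSO and at 35.0 and 29.5 CPM in GDC0449. Its groups overlapped, and the 95% interval of its log2 fold change ran from -0.21 to 0.16, on both sides of 0. The related chain gene Col5a3 (ENSMUSG00000004098, chromosome 9, 20770050 to 20815067) was scarce and fell. It had 26 and 25 reads in DMSO and 7 and 4 reads in GDC0449, or 1.32 and 1.55 CPM and 0.332 and 0.189 CPM. It passed the filter only through the DMSO libraries. The log2 fold change was -2.42 (standard error 0.48; edgeR adjusted p = 4.56e-05), and the call was lost without DMSO replicate 2, at adjusted p = 0.0580.

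Col3a1 (ENSMUSG00000026043, chromosome 1, 45311538 to 45349706), the chain of type III collagen in soft connective tissue, was the 1 fibrillar gene that rose. It had 6 and 4 reads in DMSO and 15 and 19 in GDC0449, and passed the filter only through the GDC0449 libraries. Of its bases in exons 1.44% are shared with Gm47302 on the same strand. The log2 fold change of 1.51 (edgeR adjusted p = 0.0230) rests on those few reads, and the call was lost without DMSO replicate 1, DMSO replicate 2 and GDC0449 replicate 2, at adjusted p of 0.132, 0.148 and 0.153. Col1a1 and Col1a2 were not called, at log2 fold changes of 0.81 and 0.56 (standard errors 0.54 and 0.53), and their groups overlapped.

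The 6 type IV genes lie in pairs, head to head, on 3 chromosomes. Col4a1 and Col4a2 on chromosome 8 start 21 bases apart, Col4a3 and Col4a4 on chromosome 1 start 72 bases apart, and Col4a5 and Col4a6 on chromosome X start 1309 bases apart. Col4a1 and Col4a2 form the ordinary type IV network of vessels, and the other chains form networks of more restricted basement membranes. Per length, Col4a5 exceeded Col4a1 14.96- and 15.7-fold in the DMSO libraries and 17.7- and 19.4-fold in the GDC0449 libraries.

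Col4a5 (ENSMUSG00000031274, chromosome X, 141475385 to 141689234), the gene mutated in X-linked Alport syndrome, rose from 52.7 and 56.2 CPM in DMSO to 94.2 and 91.8 CPM in GDC0449. Col4a6 (ENSMUSG00000031273, chromosome X, 141165403 to 141474076) rose from 36.3 and 39.9 CPM to 77.0 and 76.7 CPM. For both neighbours the groups lay far outside their spread. Col4a5 rose 1.71-fold (log2 fold change 0.77, standard error 0.07, edgeR adjusted p = 6.17e-13) and Col4a6 2.02-fold (log2 fold change 1.02, standard error 0.08, edgeR adjusted p = 4.42e-16). Per length, Col4a5 exceeded Col4a6 1.73- and 1.67-fold in DMSO and 1.45- and 1.42-fold in GDC0449.

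The other type IV pairs were not called. Col4a1 was at 3.92 and 3.97 CPM in DMSO and at 5.92 and 5.25 CPM in GDC0449, a log2 fold change of 0.50 under the fold threshold (edgeR adjusted p = 0.0383). Its neighbour Col4a2 was at 3.25 and 4.47 CPM and at 4.12 and 3.74 CPM, with overlapping groups and a 95% interval of the log2 fold change from -0.38 to 0.47. The difference between these neighbours was not tested. Col4a4 was at 5.03 and 6.57 CPM in DMSO and at 6.87 and 8.61 CPM in GDC0449, a log2 fold change of 0.43 that also stayed under the fold threshold (edgeR adjusted p = 0.0461). Col4a3, its trimer partner in the basement membrane of kidney and inner ear, had 3 to 7 reads per library and was not tested.

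Type IX collagen decorates the surface of type II fibrils and needs chains from Col9a1, Col9a2 and Col9a3. Col9a3 was at 195 ± 1.16 CPM (SD, n = 2) in DMSO and 202 ± 4.49 CPM in GDC0449, with a 95% interval of the log2 fold change from -0.07 to 0.18. The GDC0449 libraries lay just above the DMSO libraries. Of its bases in exons 6.07% are shared with the antisense gene Tcfl5. Col9a1 (ENSMUSG00000026147, chromosome 1, 24177610 to 24252684) rose, from 11.5 and 14.6 CPM in DMSO to 20.7 and 19.4 CPM in GDC0449. Its log2 fold change of 0.63 (standard error 0.12; edgeR adjusted p = 2.28e-05) lay near the fold threshold, which is 0.585 on the log2 scale. The call was lost without DMSO replicate 1, at 0.45 and adjusted p = 0.0793, and without GDC0449 replicate 1, at 0.58, and it was also lost with no filter on low counts, at adjusted p = 0.0594. Col9a2 was at 3.41 and 4.09 CPM in DMSO and at 6.35 and 4.31 CPM in GDC0449. Its log2 fold change of 0.52 was under the fold threshold (edgeR adjusted p = 0.0476) and passed it without GDC0449 replicate 2, at 0.77.

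The chains of type IX were thus unequal per length in every library. Col9a3 exceeded Col9a1 22.4- and 17.4-fold in DMSO and 13.0- and 13.5-fold in GDC0449, and it exceeded Col9a2 46.1- and 38.0-fold in DMSO and 26.0- and 37.1-fold in GDC0449. Col9a1 and Col9a2 differed by less, between 1.99- and 2.76-fold.

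Of the remaining fibril-associated genes Col14a1 fell and Col16a1 rose, both from few reads. Col14a1 (ENSMUSG00000022371, chromosome 15, 55307750 to 55520803) had 25 and 17 reads in DMSO and 4 and 5 in GDC0449, a log2 fold change of -2.43 (standard error 0.52; edgeR adjusted p = 0.000149) whose call was lost without DMSO replicates 1 and 2, at 0.0653 and 0.0551. Col16a1 (ENSMUSG00000040690, chromosome 4, 130047840 to 130099283) had 4 and 4 reads in DMSO and 13 and 17 in GDC0449, a log2 fold change of 1.64 (standard error 0.58; edgeR adjusted p = 0.0217). It lost its call without DMSO replicate 1, DMSO replicate 2 and GDC0449 replicate 2, at 0.166, 0.125 and 0.154. Col14a1 passed the filter only through the DMSO libraries and Col16a1 only through the GDC0449 libraries. Both genes encode chains that bind to fibrils in connective tissue. Col20a1 was more abundant, at 19.5 and 18.5 CPM in DMSO and 18.3 and 19.5 CPM in GDC0449, with overlapping groups and a 95% interval of the log2 fold change from -0.22 to 0.20. Col12a1 was not called (log2 fold change 0.75, standard error 0.51), and Col19a1 and Col22a1 had 2 reads each.

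Among transmembrane collagens, Col25a1 (ENSMUSG00000058897, chromosome 3, 130131501 to 130599877) rose. It encodes a collagen of neurons whose shed ectodomain is found in amyloid plaques. Its level was 6.66 and 7.82 CPM in DMSO and 19.9 and 19.5 CPM in GDC0449, with no overlap. The rise was 2.74-fold (log2 fold change 1.45, standard error 0.13, edgeR adjusted p = 1.31e-13), and the ratio of the authors' deposited FPKM values was 2.97. On log2(FPKM + 1) its change of 0.55 was under the fold threshold. Col23a1, the other abundant transmembrane gene, was at 24.1 and 22.1 CPM in DMSO and at 24.3 and 22.9 CPM in GDC0449, with overlapping groups and a 95% interval of the log2 fold change from -0.17 to 0.22. Col17a1, a chain of epidermal hemidesmosomes, had 2 and 1 reads in DMSO and 11 and 9 in GDC0449 and did not pass the filter. The ratio of its summed reads, scaled for depth, was 5.65, with an exact 95% counting interval from 1.68 to 29.7. That interval leaves out the spread between libraries, and the change of Col17a1 was not tested. Col13a1 had 2 reads, both in DMSO replicate 2.

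The multiplexins, which lie at basement membranes, were represented by Col18a1 and Col15a1. Col18a1 (ENSMUSG00000001435, chromosome 10, 77052178 to 77166548), whose C-terminal fragment is endostatin, fell from 5.08 and 5.64 CPM in DMSO to 2.37 and 2.74 CPM in GDC0449. The log2 fold change was -1.06 (standard error 0.22; edgeR adjusted p = 8.20e-05), and the call was lost without DMSO replicate 2, at adjusted p = 0.0627. Col15a1 had 8 and 13 reads in DMSO and 13 and 19 in GDC0449 and was not called, with overlapping groups. Thus of the genes of basement membrane collagens in the wider sense, Col18a1 fell where Col4a5 and Col4a6 rose.

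Type VI collagen forms beaded filaments from the chains of Col6a1, Col6a2 and Col6a3. Col6a1 (ENSMUSG00000001119, chromosome 10, 76708792 to 76726168) had 17 and 19 reads in DMSO and 35 and 46 in GDC0449, a log2 fold change of 0.93 (standard error 0.34; edgeR adjusted p = 0.0273). Without DMSO replicate 1, DMSO replicate 2 and GDC0449 replicate 2 the adjusted p was 0.267, 0.131 and 0.222, and with DESeq2 it was 0.262. Col6a2 (ENSMUSG00000020241, chromosome 10, 76595762 to 76623630), its neighbour, had 2 and 1 reads in DMSO and 12 and 11 in GDC0449 (edgeR adjusted p = 0.00479). The ratio of its summed reads, scaled for depth, was 6.50, with an exact 95% counting interval from 1.96 to 33.8. Counting intervals leave out the spread between libraries. Col6a2 passed the filter only through the GDC0449 libraries. It lost its call without DMSO replicates 1 and 2, at 0.0829 and 0.0959, and was not tested without GDC0449 replicate 1. Col6a3, which completes the trimer, had 1 and 0 reads in DMSO and 6 and 2 in GDC0449, a ratio of 6.78 with a counting interval from 0.909 to 301. Of the 3 later members of this family, Col6a4 had 16 reads, Col6a5 had 2 and Col6a6 had 1.

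Col7a1, the chain of the anchoring fibrils of skin, was at 10.9 and 12.3 CPM in DMSO and at 16.1 and 15.6 CPM in GDC0449. The groups did not overlap, but the log2 fold change of 0.45 stayed under the fold threshold (edgeR adjusted p = 0.00296). Col26a1 had 1 read, and Col28a1 had 4 reads, all in GDC0449 replicate 1.

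**Figure D4:**
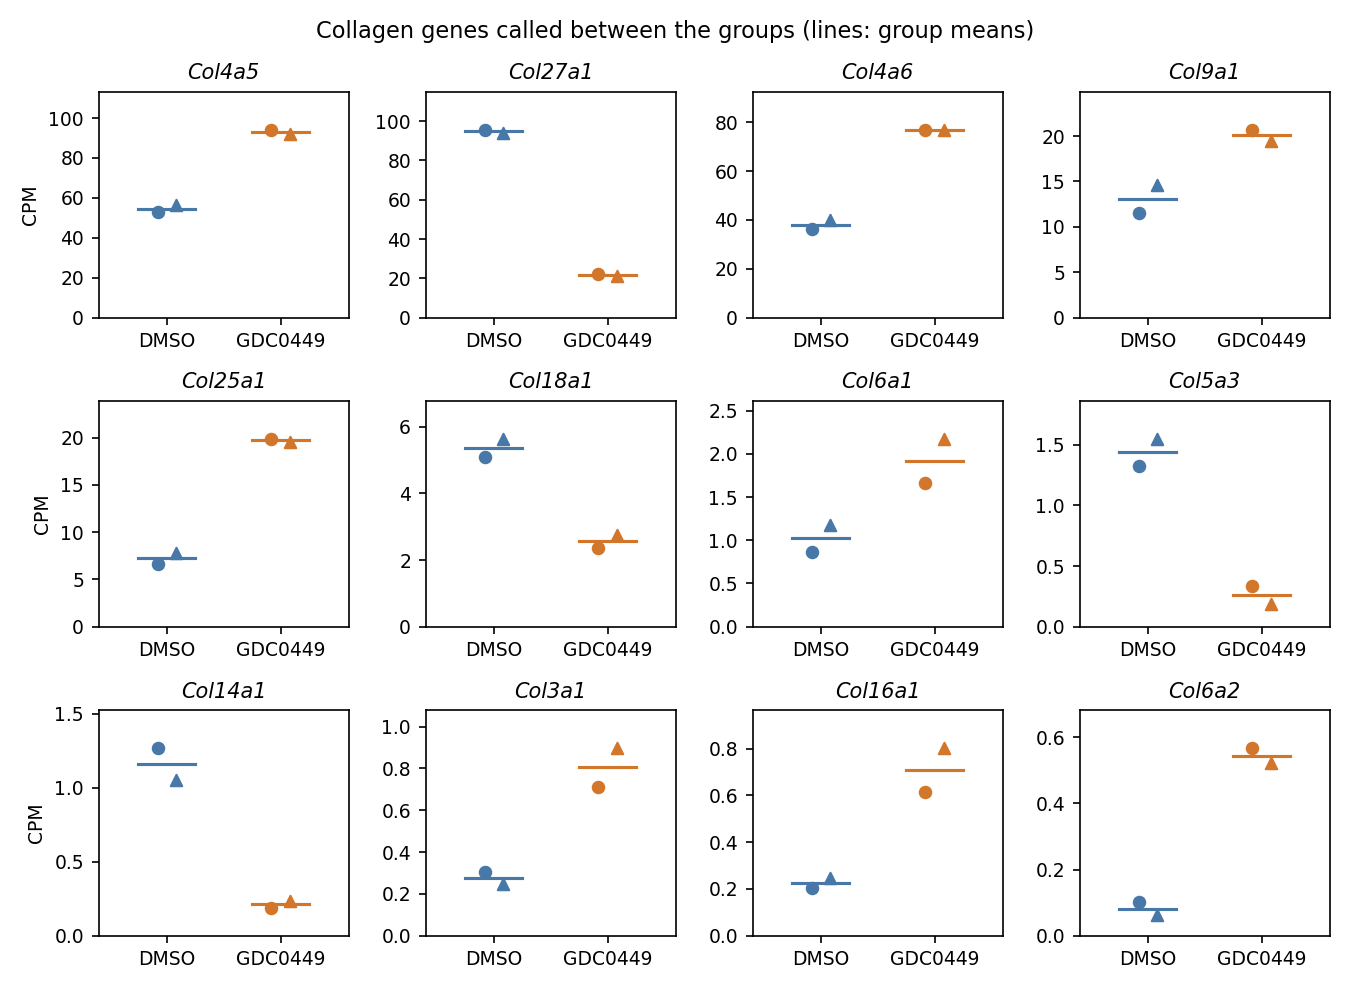
CPM in each library for the 12 called collagen genes, each panel with its own axis from 0, circles for replicate 1, triangles for replicate 2 and lines for group means. The groups do not overlap in any panel, and the bottom row holds the scarcest genes, all under 1.5 CPM.

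The promoter windows of 4 genes are shown because these genes carry the firmest changes: Col27a1 fell, Col25a1 rose, and Col4a5 and Col4a6 rose as neighbours. Each window runs from 250 bases before to 50 bases after a RefSeq start site (GRCm38.p6) and is written on the strand of the gene. Those of Col27a1 and Col25a1 use start sites at 63215412 and 130180845, inside the gene spans given above. These spans begin at 63214004 and 130131501, outside the windows. Capitals mark matches on either strand to 4 motifs: GACCACCCA, bound by Gli factors; GGGCGG, the GC box; CAGCTG, an E-box; and ACAAT, the core bound by Sox factors. Matches of the E-box read the same on both strands. The windows lie at chr4:63215162-63215461 on the plus strand, chr3:130180595-130180894 on the plus strand, chrX:141475169-141475468 on the plus strand and chrX:141474027-141474326 on the minus strand, in the order printed.
Col27a1: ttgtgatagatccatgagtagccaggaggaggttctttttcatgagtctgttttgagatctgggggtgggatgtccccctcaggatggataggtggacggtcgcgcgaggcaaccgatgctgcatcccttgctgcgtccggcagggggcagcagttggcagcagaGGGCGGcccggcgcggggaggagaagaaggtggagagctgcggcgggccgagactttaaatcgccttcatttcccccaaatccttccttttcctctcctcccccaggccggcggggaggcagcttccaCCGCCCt
Col25a1: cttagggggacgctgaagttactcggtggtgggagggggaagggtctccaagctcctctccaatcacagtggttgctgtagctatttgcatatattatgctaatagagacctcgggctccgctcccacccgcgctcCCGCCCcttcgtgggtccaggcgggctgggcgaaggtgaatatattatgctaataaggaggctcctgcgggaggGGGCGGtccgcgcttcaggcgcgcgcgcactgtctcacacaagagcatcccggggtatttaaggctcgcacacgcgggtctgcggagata
Col4a5: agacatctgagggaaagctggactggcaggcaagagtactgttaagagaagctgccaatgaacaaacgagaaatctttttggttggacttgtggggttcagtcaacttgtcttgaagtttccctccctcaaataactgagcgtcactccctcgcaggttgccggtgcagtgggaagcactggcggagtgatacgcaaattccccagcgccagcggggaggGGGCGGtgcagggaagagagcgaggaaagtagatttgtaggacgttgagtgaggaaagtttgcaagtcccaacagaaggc
Col4a6: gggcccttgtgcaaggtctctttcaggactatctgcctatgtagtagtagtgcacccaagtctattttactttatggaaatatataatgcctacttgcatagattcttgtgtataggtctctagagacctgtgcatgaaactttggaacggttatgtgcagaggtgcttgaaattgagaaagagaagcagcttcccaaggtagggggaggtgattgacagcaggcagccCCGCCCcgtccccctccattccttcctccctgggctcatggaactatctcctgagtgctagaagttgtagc

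The GC box was the only one of the 4 motifs found in these windows, with 2 matches in Col27a1, 2 in Col25a1, 1 in Col4a5 and 1 in Col4a6. The GC content was 61.7% for Col27a1, 60.0% for Col25a1, 52.7% for Col4a5 and 48.3% for Col4a6, beside a median of 52.7% over all 32851 promoter windows. RefSeq gave 38 windows for 35 of the 44 collagen genes. Of the 38 windows 23 held a GC box, beside 35.7% of all windows. An E-box was found in 7, beside 16.3%, a Sox core in 2, beside 31.0%, and the Gli motif in 0, beside 0.253%. The matches are a description of these letters in these windows.

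Collagen chains need a set of enzymes, chaperones and receptors. The shares of these lists that were called are read against the 8.68% of all tested genes called higher and the 3.85% called lower. Of 14 tested genes of hydroxylation and glycosylation 1 rose and 1 fell (median log2 fold change -0.03). P3h2, a prolyl 3-hydroxylase that acts on type IV collagen, fell from 6.71 ± 0.364 to 1.78 ± 0.0989 CPM (SD, n = 2; edgeR adjusted p = 3.54e-10). Colgalt2, which adds galactose to hydroxylysine, rose from 20.4 ± 1.76 to 36.7 ± 0.571 CPM (edgeR adjusted p = 1.90e-10). Of 12 tested genes of folding and secretion 2 rose and 10 were not called (median 0.20), the risers both peptidyl-prolyl isomerases of the endoplasmic reticulum. Fkbp14 rose from 3.57 ± 0.133 to 7.17 ± 0.575 CPM and lost its call without DMSO replicates 1 and 2, at adjusted p of 0.0527 and 0.0591. Fkbp7 rose from 2.83 ± 1.27 to 4.995 ± 0.498 CPM and lost it in the same fits, at 0.257 and 0.0527. Serpinh1, the collagen chaperone, which was picked after its values were seen, had a log2 fold change of -0.49 that stayed under the fold threshold, except without DMSO replicate 2, where it was -0.60.

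Other genes process and cross-link collagen outside the cell. Of 5 tested genes of propeptide cleavage 2 rose and 1 fell (median 0.33). Adamts14, which removes the N-propeptide of fibrillar procollagens, fell from 63.2 ± 3.16 to 29.6 ± 0.209 CPM (log2 fold change -1.09, edgeR adjusted p = 1.54e-16). Tll1, a C-proteinase, and Pcolce, an enhancer of such proteinases, rose at log2 fold changes of 0.64 and 0.59; without DMSO replicates 1 and 2 their adjusted p was 0.200 and 0.119 for Tll1 and 0.153 and 0.210 for Pcolce. Without GDC0449 replicate 2 it was 0.152 for Tll1 and 0.0675 for Pcolce, and without GDC0449 replicate 1 it was 0.239 for Pcolce. With DESeq2 it was 0.244 for Tll1 and 0.301 for Pcolce, and Pcolce also missed the threshold with RLE scaling, at 0.0520, and with limma-voom, at 0.0585. Of 3 tested cross-linking genes 1 rose and 2 were not called (median 0.31). Pxdn, peroxidasin, which links the ends of type IV collagen, rose from 45.4 ± 4.94 to 71.1 ± 2.64 CPM (edgeR adjusted p = 1.92e-09), and was under the fold threshold without DMSO replicate 2, at 0.53.

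Of 6 tested collagen receptor genes 1 rose and 1 fell (median 0.06). Ddr2, a receptor tyrosine kinase for fibrillar collagens, was abundant and fell from 602 ± 25.5 to 355 ± 16.6 CPM (log2 fold change -0.76, edgeR adjusted p = 6.83e-16). On log2(FPKM + 1) its change of -0.53 was under the fold threshold. Adgrg1, an adhesion receptor that binds type III collagen in the developing brain, rose from 103 ± 3.97 to 159 ± 12.4 CPM, and was under the fold threshold without DMSO replicate 2 and without GDC0449 replicate 1, at 0.58 and 0.55. Of 5 tested genes of fibril-binding proteins the proteoglycan gene Bgn rose, from 20.8 ± 2.35 to 40.1 ± 1.41 CPM, and 4 were not called (median 0.09).

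Of 9 tested genes that encode partners of type IV collagen in basement membranes 3 rose and 6 were not called (median 0.33). Frem1, which is part of an adhesion complex beneath epithelia, rose from 14.9 ± 0.195 to 42.2 ± 0.472 CPM and Smoc1, a calcium-binding matrix protein, from 33.4 ± 1.76 to 69.2 ± 0.241 CPM. Smoc2 rose from 0.621 ± 0.0870 to 1.85 ± 0.400 CPM and lost its call without DMSO replicates 1 and 2, at adjusted p of 0.118 and 0.0905. Of 10 tested genes of collagen degradation 3 rose and 7 were not called (median 0.15), the risers all inhibitors of matrix proteases. Timp3 rose from 13.8 ± 2.61 to 23.4 ± 0.154 CPM and was under the fold threshold without DMSO replicate 2, at 0.57. Timp2 and Timp4 were under 2 CPM on average in both groups. Without DMSO replicates 1 and 2 their adjusted p was 0.130 and 0.0750 for Timp2 and 0.150 and 0.0980 for Timp4, and Timp4 was also lost without GDC0449 replicate 2, at 0.0823. The median of all tested genes beside these lists was 0.01.

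Marker lists of other cell types differed in level, and some markers moved. Of 13 fibroblast and meningeal markers 8 had a read, with Lum, Twist1, Tbx18, Foxd1 and Slc22a6 at 0 in all libraries, and their summed level was 12.7 and 13.2 CPM in DMSO and 24.0 and 23.4 CPM in GDC0449. Of the 4 tested, Thy1, which neurons also express, and Prrx1 rose, from 9.93 ± 0.0862 to 18.5 ± 0.451 CPM and from 1.15 ± 0.398 to 3.93 ± 0.0704 CPM. Without Thy1 and Prrx1 the sum was 1.93 and 1.74 CPM in DMSO and 1.18 and 1.28 CPM in GDC0449, so the higher sum came from these genes alone. The part of the markers in the rise of scarce connective tissue chains such as Col3a1, Col6a1 and Col6a2 was not tested. In bulk samples such as these, fewer cells of a type and less RNA per cell cannot be told apart. Of 10 endothelial markers 6 had a read, with Cdh5, Kdr, Tie1 and Erg at 0. Their sum was 2.03 and 2.11 CPM in DMSO and 1.99 and 2.46 CPM in GDC0449. Of the 3 tested, Pecam1 was called higher, a call lost without DMSO replicate 1, DMSO replicate 2 and GDC0449 replicate 2, at adjusted p of 0.292, 0.108 and 0.209.

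Of 10 pericyte and smooth muscle markers 8 had a read, with Abcc9 and Kcnj8 at 0. Their sum was 13.4 and 13.0 CPM in DMSO and 20.5 and 16.7 CPM in GDC0449. Without Notch3 and Pdgfrb it was 1.02 and 0.806 CPM in DMSO and 1.09 and 1.37 CPM in GDC0449. Of the 2 tested, Notch3 rose and Pdgfrb fell, and both calls were lost without DMSO replicate 1, DMSO replicate 2 and GDC0449 replicate 1. In that order, the adjusted p was 0.0742, 0.194 and 0.134 for Pdgfrb. For Notch3 it was 0.125 and 0.161 in the first fits, and its log2 fold change was 0.42 in the last, under the fold threshold. Of 12 skeletal muscle markers 9 had a read, with Myf5, Pax7 and Myf6 at 0, and their sum was 11.2 and 11.0 CPM in DMSO and 24.1 and 27.2 CPM in GDC0449. Of the 7 tested, Myod1 rose from 1.46 ± 0.0459 to 11.0 ± 0.258 CPM. Myog rose also, a call lost without DMSO replicate 1, DMSO replicate 2 and GDC0449 replicate 1, at 0.0965, 0.118 and 0.0690. Of 10 astrocyte markers 7 had a read, with Gjb6, Aldh1l1 and Aqp4 at 0. Their sum was 206 and 222 CPM in DMSO and 300 and 293 CPM in GDC0449. Without the called genes Slc1a2, Aldoc and Sox9 it was 75.5 and 81.3 CPM in DMSO and 76.3 and 73.9 CPM in GDC0449. Of the 7 tested 2 rose and 1 fell, the last being Sox9, the transcription factor gene required for cartilage formation, from 50.5 ± 0.513 to 29.8 ± 0.142 CPM. The risers were Slc1a2, from 78.0 ± 7.68 to 177 ± 1.96 CPM, and Aldoc, whose call was lost without DMSO replicate 2, at adjusted p = 0.0579. Of 8 oligodendrocyte markers 7 had a read, with Olig1 at 0, and their sum was 69.4 and 70.2 CPM in DMSO and 85.7 and 84.0 CPM in GDC0449. Of the 5 tested 0 were called by edgeR, and limma-voom and DESeq2 also called 0. Of these 5, Mbp alone had an unadjusted p below 0.05 in edgeR; its adjusted p was 1.22e-05, and its log2 fold change of 0.41 was under the fold threshold. Mbp, which encodes a myelin protein, had a level of 51.7 ± 0.00495 CPM under DMSO and of 68.8 ± 1.31 CPM under GDC0449. The 10 microglia and macrophage markers all had a read and summed to 5.29 and 7.69 CPM in DMSO and 2.98 and 3.45 CPM in GDC0449. Without Lyz2 and Tyrobp the sum was 1.53 and 2.48 CPM in DMSO and 1.56 and 1.325 CPM in GDC0449. Of the 3 tested, Lyz2 and Tyrobp fell, calls lost without DMSO replicates 1 and 2, at 0.0592 and 0.134 for Lyz2 and 0.0653 and 0.0958 for Tyrobp, and for Tyrobp also without GDC0449 replicate 1, at 0.0579. The part of any of these cells in the collagen values was not tested.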

How the data were processed

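Read counts and FPKM values came from the authors' deposited table. Per the labels, the authors trimmed adapters (Trim Galore), aligned to mm10 (HISAT2), counted reads per gene (HTSeq 0.11.1), tested with DESeq2 1.26.0 at the same fold and adjusted p thresholds as here, and scaled each gene's reads by its length and the library depth to give FPKM. The deposited FPKM values cannot all come from the deposited counts in that way. In GDC0449 replicate 2 Col10a1 had 0 reads and 0.009004 FPKM, and in DMSO replicate 1 Col8a2 had 1 read and 0 FPKM. The sources used here do not give the FPKM tool, annotation release, strand setting or RNA selection, so counts are uncertain where a gene overlaps another. Reads outside genes (12.3% to 14.4%), ambiguous reads (4.73% to 4.91%) and reads with several alignments (10.4% to 10.7%) were left out.

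Symbols, positions and exon lengths are from GENCODE M21 (GRCm38, or mm10), which held 55480 of 55573 identifiers. The counts of all 4 libraries were fitted by group with the quasi-likelihood test of edgeR 4.0.16 (legacy set to false, TMM factors, default filter). Each standard error is the size of the log2 fold change over the root of F, and 95% intervals are normal approximations. The code was tested on simulated data. Replicates varied beyond counting noise (chi-square per gene 3.99 in DMSO, 3.21 in GDC0449). Alternatives were RLE and upper-quartile factors, other filters (none, or 5 CPM in at least 2 libraries), DESeq2 1.42.0, voom in limma 3.58.1, a replicate block, limma on log2(FPKM + 1) for genes at 0.1 FPKM or more in 2 libraries, the adjusted p without a fold threshold, and each library left out.

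The collagen genes, classes, gene lists and motifs were chosen with earlier results of these data known. Any detected collagen gene could be named. From every other list up to 6 called genes with the smallest p were named, or the 2 most abundant where none was called; 1 gene that this rule names is not reported here.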

Additional observations from a re-analysis of the deposited data

How the results depend on the processing

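The 12 called collagen genes kept their direction in every alternative that gave them a value, but 9 of them lost the call in at least 1. On all libraries 8 collagen genes were higher and 4 lower. With no filter on low counts 5 were higher. With the filter at 5 CPM in 2 libraries, which leaves out scarce genes, 4 were higher and 1 lower. With DESeq2, which gave no adjusted p for some scarce genes, 4 were higher. With limma on log2(FPKM + 1), where the added 1 shrinks changes of scarce genes, 4 were higher and 1 lower. Without the fold threshold 13 were higher. Leaving out 1 library at a time gave 3 to 6 higher and 1 to 4 lower. In such a fit the lone library of a group is assumed to vary like the others.

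Over all genes 1343 were higher and 596 lower. The counts were 746 higher with no filter, 799 and 366 with the filter at 5 CPM, 780 higher with DESeq2, 522 and 343 on log2(FPKM + 1), 2794 and 2793 without the fold threshold, and from 500 to 1221 higher and from 351 to 605 lower with 1 library left out. The cause was not tested. With DESeq2 Fkbp7, Smoc2, Timp2, Timp4 and Pdgfrb lost their calls (adjusted p 0.0973, 0.0511, 0.0501, 0.193 and 0.169), like Tll1 and Pcolce. With no filter all of these lost them, as did Timp3, Pecam1, Notch3, Lyz2, Tyrobp and Myog. On log2(FPKM + 1) Pxdn, Prrx1 and Zic4 lost theirs (0.0555, 0.14 and 0.12), as did all these genes except Timp3 and the untested Pecam1. With no filter Col3a1, Col6a1, Col9a1 and Col16a1 lost their calls (adjusted p 0.0919, 0.141, 0.0594 and 0.0880), and on log2(FPKM + 1) Col5a3, Col6a1, Col14a1 and Col18a1 did (0.158, 0.203, 0.188 and 0.126), as did Col25a1, whose 0.5509 was under the fold threshold.

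Log2 fold changes of some uncalled genes turned sign. With upper-quartile scaling and with the 5 CPM filter Col5a1 was at 0.0082 and 0.0024 and Col20a1 at 0.0266 and 0.0211. With 1 library left out Col1a2 ranged from -0.1099 to 2.3567, Col4a2 from -0.1864 to 0.2638, Col5a1 from -0.1550 to 0.0896, Col15a1 from -0.0915 to 0.8794, Col20a1 from -0.0565 to 0.0370 and Col23a1 from -0.0396 to 0.0884.

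Replicate numbers are shared between the groups, but replicate differences correlated at 0.0351 across genes, so the numbers were not taken as pairs. With the replicate block 8 collagen genes were higher and 4 lower, as without it, and over all genes 1407 were higher and 615 lower.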
